A study of Mus musculus with 36 samples.

Results

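Replication timing (RT) was examined at 9 genes of B cell receptor signalling and of the B cell surface: Cd79a, Cd79b, Syk, Blk, Blnk, Cd22, Cr2, Ms4a1 and Cd40. They were taken by name from 22350 protein-coding genes, and the annotated 5′ end of each gene fixed its place in mm9. The assay was Repli-seq: DNA made in early and in late S phase was labelled with BrdU, sorted and sequenced. The deposited maps cut each chromosome, in bins of 20 kb, into domains of an early state (E), a late state (L) and a middle state (M). The series holds 36 libraries in 7 groups, of which 8 libraries stand behind the B cell maps used here. The CH12 map came from CH12 cells, a clonal mouse B cell lymphoma line, that carried a lentiviral shRNA against LacZ (shLacZ) as the infection control. The primary B map (priB) came from WT splenic B cells activated in culture. The labels give the same stimulation with IL4, CD40 and TGF beta for every library, in words written for CH12 cells, and the age of the mice is not given in the sources used here. The third map is named for WT mouse embryonic fibroblasts (MEFs), which are not B cells. The labels tie it to no library of the series, and the study lists its WT MEF Repli-seq data as taken from an earlier public dataset, so that cell type and origin of the data cannot be told apart. Replicates were merged before domains were called, which leaves 1 map per condition, no replicate error and no test between maps. Every difference below is a difference between single maps, and the maps hold no expression by which the cell types could be checked.

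The B cell receptor is a membrane immunoglobulin that cannot signal by itself. Antigen binding is passed on by CD79A and CD79B, whose cytoplasmic tails are phosphorylated by Src family kinases such as BLK and then bind the kinase SYK, and SYK phosphorylates the adaptor BLNK, which gathers the enzymes that raise calcium and activate NF-kB. CD21 (the product of Cr2) lowers the threshold for this signal, CD22 raises it, CD20 (Ms4a1) is a B cell membrane protein, and CD40 receives help from T cells. RT is known to differ between cell types over domains far larger than a gene, and early domains are known to be rich in genes.

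All 9 gene starts were E in primary B cells. In CH12 cells 7 were E and 2 were M, and in MEFs 6 were E and 3 were M. None of the 9 was L in any map, beside 22.1% of all protein-coding starts in CH12 cells, 12.9% in primary B cells and 11.9% in MEFs. For comparison, E domains held 50.6% of all protein-coding starts in CH12 cells, 58.0% in primary B cells and 58.6% in MEFs. Cd79a, Cd79b, Syk, Cd22 and Cd40 were E in all 3 maps, a state shared by 43.9% of all protein-coding starts. The 4 others differed between maps. Ms4a1 and Blnk were E in both B cell maps and M in MEFs, a pattern that 998 genes, or 4.47%, had. Blk was M in CH12 cells but E in both other maps, as were 5.46% of genes. Cr2 was E in primary B cells alone and M in both other maps, as were 3.4% of genes.

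Between pairs of maps, the changes were all of 1 step, from M to E. Cr2 and Blk were earlier in primary B cells than in CH12 cells, 2 of 9 genes or 22.2%, beside 18.8% of all protein-coding starts. No member was later in primary B cells than in CH12 cells, where 2.75% of all starts were. Ms4a1, Cr2 and Blnk were earlier in primary B cells than in MEFs, 3 of 9 or 33.3%, beside 11.8%. No member was later in primary B cells than in MEFs, where 13.2% of all starts were. Ms4a1 and Blnk were earlier in CH12 cells than in MEFs, 2 of 9 or 22.2%, beside 6.81%. Blk was later in CH12 cells than in MEFs, 1 of 9 or 11.1%, beside 23.1%. These pairs share maps, so the counts are not separate observations, and with 9 genes a change in 1 gene moves a share by 11.1 percentage points. The share of members that was earlier in primary B than in CH12 cells was near that of all genes.

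**Figure D1:**
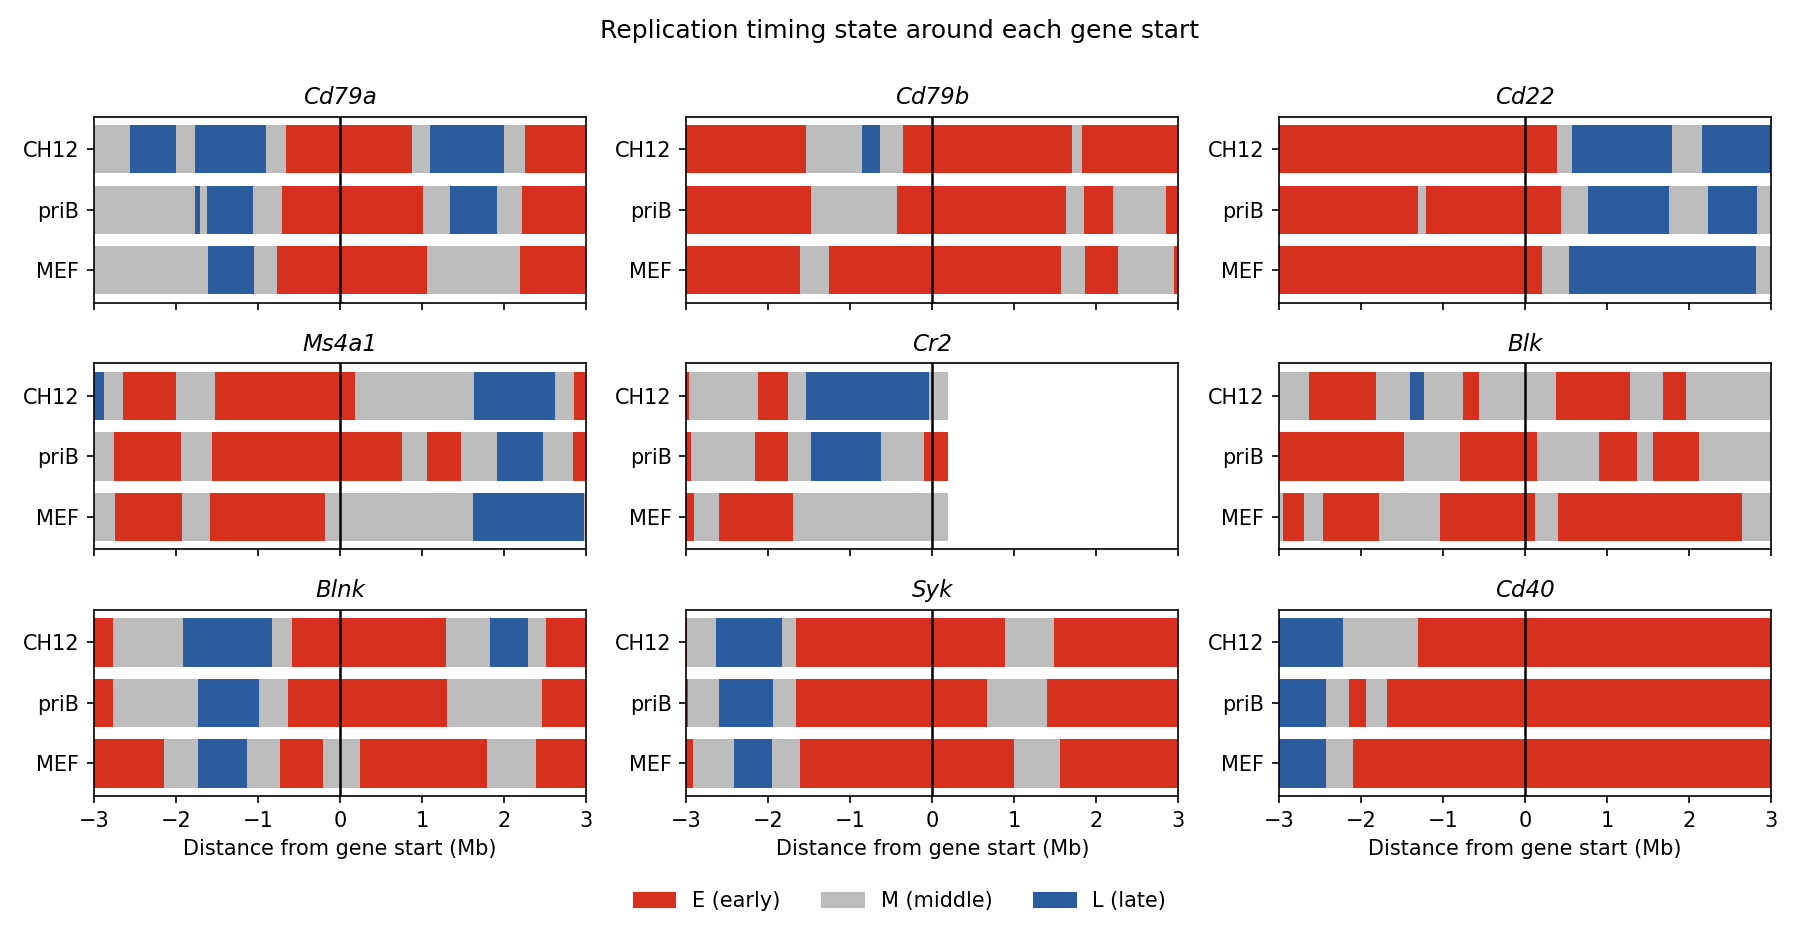
Replication timing state (E red, M grey, L blue) from 3 Mb before to 3 Mb after each gene start along the chromosome, in the CH12, primary B (priB) and MEF maps; the black line is the gene start. The line crosses red in all 9 panels in priB, grey for Cr2 and Blk in CH12, and grey for Ms4a1, Cr2 and Blnk in MEF; the Cr2 panel is empty past the end of its chromosome.

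The promoters are printed first for a pair of genes that differed between maps (Cr2 and Blnk) and for a pair that was E in all maps (Cd79a and Syk), so that the sequence at the gene start can be set beside the domain around it. RefSeq (GRCm38.p6) promoters, 250 bases before to 50 after a start, were held for 5 of the 9 members, namely Cd79a, Cd22, Cr2, Blnk and Syk, and Cd79b, Ms4a1, Blk and Cd40 are named only. The 6 sequences, of which Syk has 2, were each found without a mismatch in mm9. Capitals mark matches to 4 motifs, searched on both strands: TATAAA, the octamer ATTTGCAT that OCT factors bind, the core CCCNNGGG of EBF sites, and the core GAGGAA of PU.1 sites. No matches overlap in the sequences shown. The mm9 positions are chr7:25682266-25682565 (plus strand) for Cd79a, chr13:52678556-52678855 (plus strand) for the first Syk promoter, chr19:41068662-41068961 (minus strand) for Blnk and chr1:197002864-197003163 (minus strand) for Cr2.
Cd79a: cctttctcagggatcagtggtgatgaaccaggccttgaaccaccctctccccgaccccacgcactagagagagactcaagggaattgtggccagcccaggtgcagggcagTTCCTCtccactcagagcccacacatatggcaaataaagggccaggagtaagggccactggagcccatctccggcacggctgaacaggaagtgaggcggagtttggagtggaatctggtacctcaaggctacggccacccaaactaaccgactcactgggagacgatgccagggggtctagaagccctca
Syk: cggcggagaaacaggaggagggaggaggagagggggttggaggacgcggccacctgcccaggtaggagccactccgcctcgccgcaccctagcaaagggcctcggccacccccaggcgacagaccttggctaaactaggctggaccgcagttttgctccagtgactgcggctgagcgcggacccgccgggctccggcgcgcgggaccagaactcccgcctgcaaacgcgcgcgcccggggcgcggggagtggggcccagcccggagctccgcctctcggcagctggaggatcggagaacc
Blnk: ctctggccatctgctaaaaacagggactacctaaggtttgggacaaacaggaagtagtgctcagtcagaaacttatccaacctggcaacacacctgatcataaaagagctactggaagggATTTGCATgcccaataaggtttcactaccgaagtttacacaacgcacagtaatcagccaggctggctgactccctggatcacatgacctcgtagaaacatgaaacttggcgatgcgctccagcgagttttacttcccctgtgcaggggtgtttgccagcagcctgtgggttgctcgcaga
Cr2: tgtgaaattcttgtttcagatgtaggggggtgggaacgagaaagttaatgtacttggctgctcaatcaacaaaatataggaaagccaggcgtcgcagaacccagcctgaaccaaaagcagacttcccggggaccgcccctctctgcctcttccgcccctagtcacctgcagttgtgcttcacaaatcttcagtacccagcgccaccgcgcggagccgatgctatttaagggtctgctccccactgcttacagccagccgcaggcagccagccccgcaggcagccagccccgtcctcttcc

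The octamer was found in the Blnk promoter, at position 121 counted from the 5′ end, and in 1.74% of all 32851 promoters of the table. GAGGAA was found in the Cd79a promoter, on the other strand at position 111, and in the second Syk promoter, and 28.3% of all promoters hold it. CCCNNGGG was found in the Cd22 promoter and in 13.7% of all promoters. TATAAA was found in no member promoter and in 13.6% of all. CG dinucleotides, which are dense in CpG island promoters, numbered 31 in the first Syk promoter, 14 in Cr2, 8 in Cd79a, 7 in Blnk, 4 in Cd22 and 2 in the second Syk promoter, against a median of 7 over all promoters. The first Syk promoter, with 72.0% G and C, was thus the member promoter richest in CG, with fewer CG in 89.4% of all promoters, and the second Syk promoter was the poorest, with fewer in 14.1%. Both lie in the same E domain in every map. The CG count did not order the members by state, since Cr2, which was M in 2 maps, had more CG than Cd79a and Cd22, which were E in all 3. The first base after the RefSeq start lay 4 bases from the annotated gene start for Cr2 and 13709 bases from it for the second Syk promoter, and the state at each RefSeq start was the state at the gene start in all 3 maps.

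The receptor's signalling chains come first. Cd79a (chr7:25682400-25687216, plus strand) encodes CD79A, and its 4.8 kb lie within 1 bin. The covering domain, E in each map, spanned 1540 kb in CH12 cells, 1720 kb in primary B cells and 1820 kb in MEFs. The domain was thus nearly the same in the 3 maps, and the whole CH12 domain was E in all of them (chr7:25020001-26560000). The start lay 662 kb from the nearer edge in CH12 cells, 702 kb in primary B cells and 762 kb in MEFs, and M lay beyond either edge in every map. The 1 Mb around the start was wholly E in the 3 maps and held 40 protein-coding starts, more than around 88.3% of all genes, and its G and C content of 50.7% exceeded that of 97.9% of them. Arhgef1 and Rps19, a ribosomal protein gene, start 5.5 kb and 13.0 kb away, and all 5 protein-coding neighbours within 100 kb were E in the 3 maps.

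Cd79b (chr11:106172655-106176076, minus strand) encodes CD79B, the partner chain. Its E domain measured 2060 kb in CH12 cells, 2060 kb in primary B cells and 2820 kb in MEFs. The B cell domains had the same length but both borders of the primary B domain lay 80 kb lower, so that 1980 kb was common to them. The nearer edge was 356 kb away in CH12 cells, 436 kb in primary B cells and 1256 kb in MEFs, where the lower border lay 900 kb farther out than in CH12 cells. Cd79b thus lay nearest to the edge of its domain in CH12 cells. Its E domain also held Pecam1, which encodes an inhibitory receptor of the immunoglobulin superfamily, in all 3 maps. Within 100 kb there were 10 protein-coding neighbours, among them Icam2, and all 10 were E in the 3 maps. The 1 Mb around the start was 85.6% E in CH12 cells, 93.6% in primary B cells and 100.0% in MEFs.

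Of the kinases, Syk (chr13:52678542-52744161, plus strand, named Sykb in the annotation) encodes the kinase that binds the phosphorylated CD79 tails. Its E domain measured 2540 kb in CH12 cells, 2320 kb in primary B cells and 2620 kb in MEFs, and the start lay 881 kb, 661 kb and 1001 kb from the nearer edge, in the same order. The lower border was at the same bin in both B cell maps and 40 kb higher in MEFs. Syk had the fewest genes around it of the 5 members that were E in all 3 maps. The 1 Mb around its start held 4 protein-coding starts, fewer than around most genes (4.9% of genes had fewer), and its domain held 6.3 starts per Mb in CH12 cells, against 18.9 per Mb over all CH12 E domains and 3.76 per Mb over L domains. The window was nevertheless wholly E in the 3 maps, with a G and C content of 46.4%. The sole neighbour within 100 kb, Diras2, was E throughout.

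Blk (chr14:63991674-64036024, minus strand) encodes a Src family kinase found mainly in B cells, and it was the only member M in CH12 cells and E in MEFs. Its domain was M and 940 kb long in CH12 cells. It was E and 940 kb long in primary B cells, and E and 1160 kb long in MEFs. The surroundings were reversed between the B cell maps. In CH12 cells the M domain (chr14:63480001-64420000) was bordered by E on both sides, and in primary B cells the E domain (chr14:63240001-64180000) was bordered by M on both sides, with each border 240 kb lower. The nearer edge was 384 kb from the start in CH12 cells, 144 kb in primary B cells and 124 kb in MEFs. In primary B cells the start of Blk therefore lay within the 300 kb span over which the authors smoothed RT, as measured from its border. It was also less than 300 kb from a border in MEFs, where the smoothing is not given in the sources used here. The 1 Mb around the start was 11.6% E in CH12 cells, 64.4% in primary B cells and 72.0% in MEFs, and the rest was M. Fam167a and Tdh, its 2 neighbours within 100 kb, had the same 3 states as Blk.

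The other Src family kinases examined did not share the M state of Blk in CH12 cells. Lyn, Fyn, Lck, Fgr, Src and Yes1, 6 genes, were all E in CH12 cells and in primary B cells, and 5 were E in MEFs. Lyn, the Src family kinase best known for starting and limiting the receptor's signal, was M in MEFs. Among them Lyn had the shortest CH12 domain, 520 kb, and Fgr the longest, 8280 kb. The T cell receptor counterparts of the signalling chains and kinases (Zap70, Lck, Lcp2, Lat, Cd3d, Cd3e, Cd3g and Cd247) were also E in 8 of 8 cases in both B cell maps and in 7 of 8 in MEFs. Over all protein-coding starts the shares in E were 50.6%, 58.0% and 58.6% in CH12 cells, primary B cells and MEFs. Cd3d, Cd3e and Cd3g start in 1 domain, of 2560 kb in CH12 cells, so these 8 genes are not 8 separate loci.

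Blnk (chr19:41003417-41069025, minus strand) encodes the adaptor that links SYK to phospholipase C, and with Syk it has the longest gene body among the members, 65.6 kb over 4 bins. The start was covered by E over 1880 kb in CH12 cells, by E over 1940 kb in primary B cells and by M over 460 kb in MEFs. The B cell domains matched within 40 kb at the lower border and 20 kb at the upper border, and the whole CH12 domain was E in both. In MEFs the M domain (chr19:40860001-41320000) was an island between an E domain of 520 kb and an E domain of 1540 kb. The start lay 589 kb from the nearer edge in CH12 cells, 629 kb in primary B cells and 209 kb in MEFs. Blnk was therefore deep within E in both B cell maps, and in MEFs less than 300 kb from a border. The 1 Mb around the start was 100.0% E in the B cell maps and 54.0% E in MEFs.

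The interval that was M in MEFs held 6 protein-coding starts, and it was narrow enough to leave out a functionally related gene. Pik3ap1, which encodes the adaptor BCAP that couples the receptor to PI3 kinase, starts in the same E domain as Blnk in CH12 and primary B cells. In MEFs it was E, in the domain on the far side of the border, 140 kb from it. The 3 protein-coding neighbours within 100 kb of Blnk followed Blnk in all 3 maps: Zfp518a, Opalin, and Dntt, which encodes the terminal transferase that adds nucleotides to rearranging receptor genes.

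Among the co-receptors, Cr2 (chr1:196963005-197002909, minus strand) encodes complement receptors CD21 and CD35. CH12 cells had it in M over 235 kb, primary B cells in E over 295 kb and MEFs in M over 1895 kb. Each of these was the last domain of chromosome 1, whose end in the reference lies 192 kb above the gene start, and that end is not counted as a domain edge. The 2 B cell domains were short for their states. In CH12 cells 22.5% of M domains were shorter, and in primary B cells 12.3% of E domains were shorter. The only border lay 42.9 kb from the start in CH12 cells, with L beyond it, 103 kb in primary B cells, with M beyond it, and 1703 kb in MEFs, with E beyond it. The CH12 border fell 3.0 kb past the 3′ end of the gene. Cr2 was the only member within 100 kb of a domain edge, in the CH12 map, and in both B cell maps its border lay inside the 300 kb smoothing span.

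The neighbours of Cr2 showed the largest steps found beside any member. Cr1l, a complement regulator that starts 45.1 kb below Cr2, was L in CH12 cells, E in primary B cells and M in MEFs, and it lay 2.2 kb from the CH12 border. Cd46, also a complement regulator, starts 84.5 kb below Cr2 and had the same 3 states as Cr1l. Of the 40 protein-coding neighbours within 100 kb of any member, these 2 alone differed from their member, and 38 had the same 3 states. In CH12 cells the L domain beyond Cr2 spanned 1500 kb. In primary B cells the nearest L domain spanned 860 kb, and an M domain of 520 kb lay between it and the E domain of Cr2. The 692 kb from 500 kb below the gene to the chromosome end was 66.0% L and 34.0% M in CH12 cells, 57.3% M and 42.7% E in primary B cells, and 100.0% M in MEFs. This window held 4 protein-coding starts and had 40.8% G and C, the lowest among the members.

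Cd22 (chr7:31650421-31665361, minus strand) encodes an inhibitory receptor that binds sialic acid. It lay in E over 4120 kb in CH12 cells, 1640 kb in primary B cells and 4000 kb in MEFs. The primary B domain was 0.4 times as long as the CH12 domain, and the gene was E in either. An M interval of 100 kb (chr7:30360001-30460000), 1205 kb below the start, split the primary B domain there, and the E domain beyond it measured 2460 kb. The upper border is the nearer edge, and it lay 395 kb from the start in CH12 cells, 435 kb in primary B cells and 215 kb in MEFs. In each map a short M domain of 180 to 340 kb followed it and then L, so Cd22 sits at the gene-dense side of an early to late transition that all 3 maps held. The domain had 167 protein-coding starts in CH12 cells and 166 in MEFs, more than that of any other member in those maps. In primary B cells, where the domain was split, it had 81, fewer than the 113 in the domain of Cd40. The 1 Mb around Cd22 held 51. All 9 neighbours within 100 kb were E in the 3 maps, among them Mag, a related sialic acid binding receptor, and the hepcidin genes Hamp and Hamp2.

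Ms4a1 (chr19:11324654-11340669, minus strand) encodes CD20, and it is 1 of 17 genes of the MS4A cluster. The gene start was in E over 1700 kb in CH12 cells, in E over 2320 kb in primary B cells and in M over 1800 kb in MEFs. The lower border of the E domain moved little, and the upper border moved far. It lay 179 kb above the Ms4a1 start in CH12 cells, 759 kb above it in primary B cells, and 181 kb below it in MEFs. Cd5, which encodes an inhibitory receptor of B and T cells and starts in the same E domain in CH12 and primary B cells, was E in MEFs too, 347 kb from the border there.

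The moving border crossed the gene cluster at a different place in each map. In primary B cells all 17 MS4A starts were in 1 E domain. In CH12 cells 11 of 17 were E, up to Ms4a4b, which lay 2.0 kb from the border, and Ms4a6c, Ms4a6b, Ms4a4d, Ms4a6d, Ms4a2 and Ms4a3 were M. In MEFs 3 of 17 were E, namely Ms4a10, Ms4a15 and Ms4a8a, the last of them 4.4 kb from the border, and 14 were M. Ms4a2, which encodes the beta chain of the IgE receptor of mast cells, was therefore M in CH12 cells, E in primary B cells and M in MEFs. These 17 genes lie side by side under 1 moving border, so they are a description of 1 locus and not 17 separate changes. The CH12 and MEF borders at the cluster lie 360 kb apart, close to the 300 kb smoothing span of the B cell maps.

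**Figure D2:**
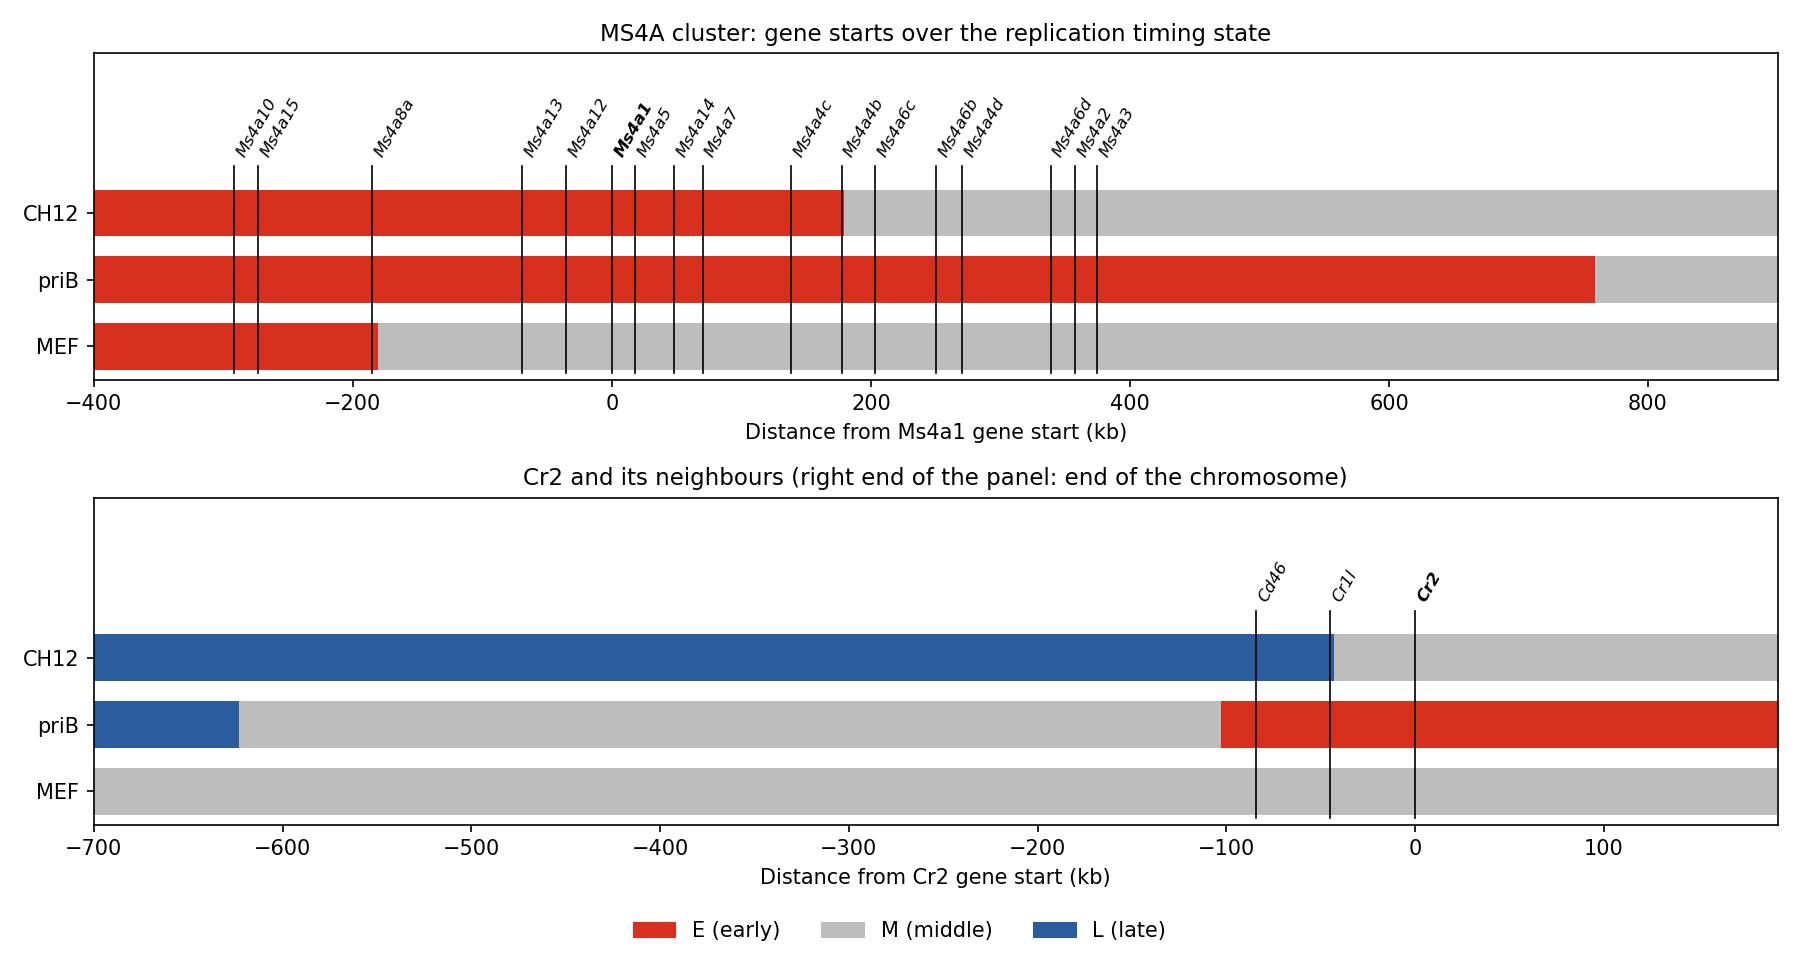
Gene starts (black lines) over the replication timing state in the CH12, primary B (priB) and MEF maps, as distance in kb from the Ms4a1 start (top) and from the Cr2 start (bottom), with E in red, M in grey and L in blue. The E to M border lies 179 kb above Ms4a1 in CH12, 759 kb above it in priB and 181 kb below it in MEF; Cr1l and Cd46 fall in L in CH12 and in E in priB, and the lower panel ends at the chromosome end.

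Cd40 (chr2:164881127-164898448, plus strand) encodes the receptor for CD40 ligand. The labels name CD40 among the stimuli, in words written for CH12 cells, so its use on the primary B cells is not clear. Cd40 had the longest domain of the members in every map, E over 4980 kb in CH12 cells, 5340 kb in primary B cells and 5980 kb in MEFs. Only 5 of 555 E domains were longer in CH12 cells, 9 of 660 in primary B cells and 12 of 567 in MEFs. The start lay 1301 kb from the nearer edge in CH12 cells, 1681 kb in primary B cells and 2101 kb in MEFs, so Cd40 was also the member deepest within E. The E interval common to the 3 maps was 4960 kb (chr2:163580001-168540000). The 1 Mb around the start was wholly E, held 42 protein-coding starts and had 49.7% G and C.

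Over the members in E, the median length of the covering domain was 2060 kb in CH12 cells (7 genes), 1940 kb in primary B cells (9 genes) and 2720 kb in MEFs (6 genes). Taken over all protein-coding starts in E, the median was 2200 kb, 2100 kb and 2660 kb. The members' domains were thus about as long as those that cover an early gene in general. The median over domains rather than genes was far shorter, 680 kb in CH12 cells, since the median over genes counts a domain once for each gene it holds. An E start within 300 kb of an edge was found for 1 of 7 members in CH12 cells (Ms4a1), 2 of 9 in primary B cells (Cr2 and Blk) and 2 of 6 in MEFs (Cd22 and Blk). The share over all protein-coding E starts was 37.6%, 37.7% and 30.1%.

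**Figure D3:**
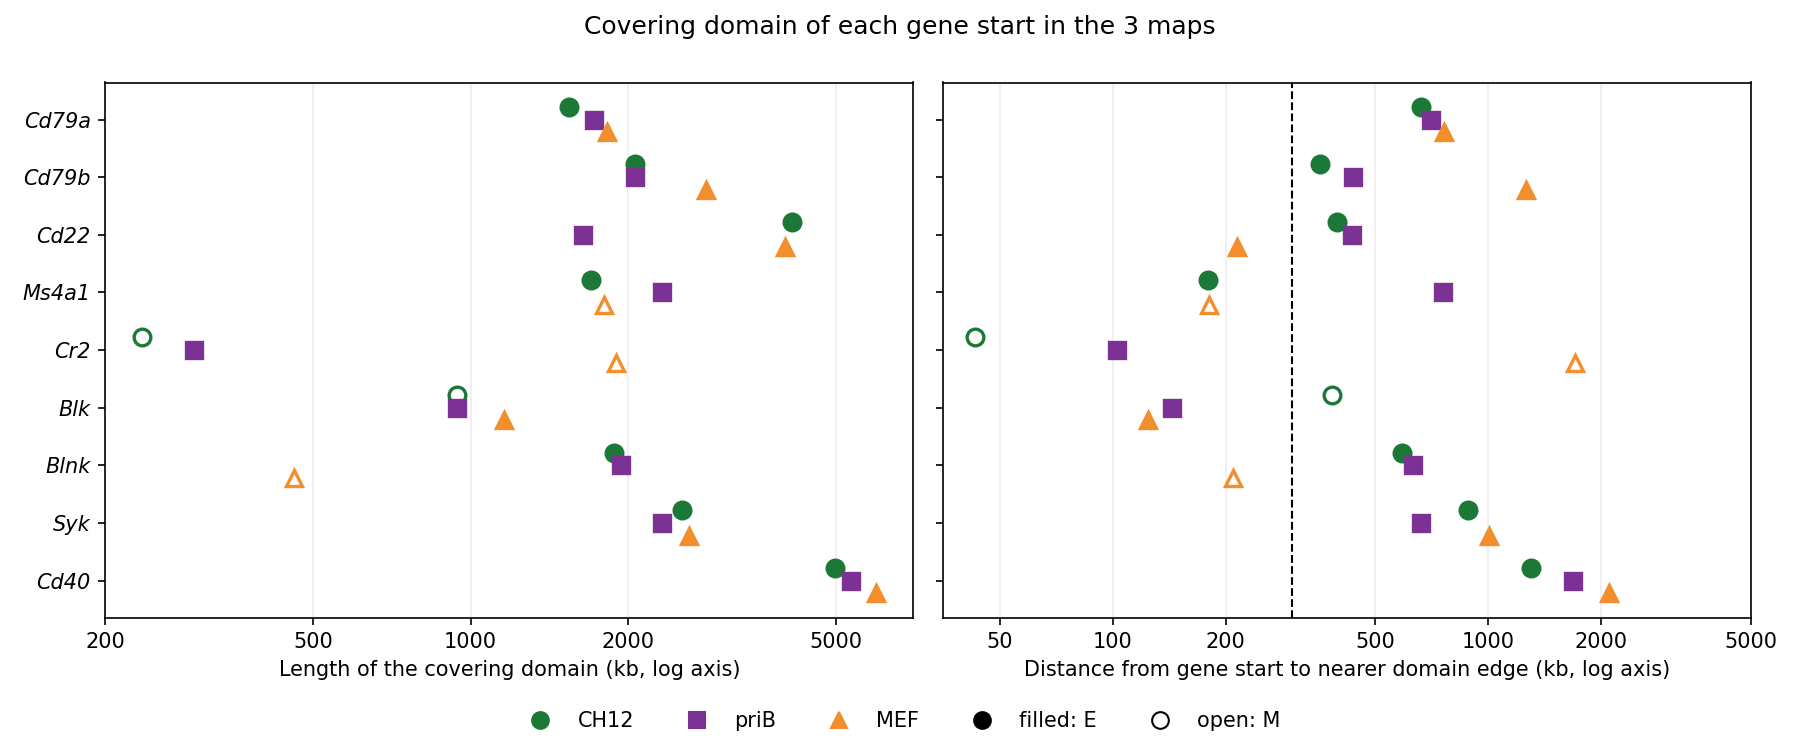
Length of the covering domain (left) and distance from the gene start to the nearer domain edge (right), in kb on log axes, for each gene. Circles are the CH12 map, squares primary B and triangles MEF, with filled symbols for E and open symbols for M. The dashed line is 300 kb, the smoothing span of the B cell maps. Cd40 has the longest domain in each map, from 4980 to 5980 kb, and Cr2 the shortest in CH12 and priB, 235 and 295 kb.

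Every member's body, from 3.4 kb for Cd79b to 65.6 kb for Blnk and Syk, lay within 1 state in each map. By the measure of likeness used, the sum over the 3 maps of the absolute log2 ratio of domain lengths among genes of the same 3 states outside the member's own domains, the gene most like Cr2 was Pik3r1 on chromosome 13, with M, E and M domains of 260, 440 and 1560 kb and a sum of 1.0. The gene most like Ms4a1 was Mdm1, with a sum of 0.34. For Blk it was Cnot6 with 5 other genes of the same domains, with a sum of 0.28. For Blnk it was Cd244 with 9 others, among them Cd48 and Cd84, with a sum of 0.39. Cr2 was the member least like any other gene by this measure. For the 5 members in E throughout, 18 to 103 genes tied as the most alike.

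The pathway around the members was read from lists of named genes. Among 22 genes of the activating relay, 17 were E in CH12 cells, 21 in primary B cells and 13 in MEFs. These were 77.3%, 95.5% and 59.1%, beside 50.6%, 58.0% and 58.6% of all protein-coding starts. The MEF share was thus near that of all genes. Btk, the kinase recruited after SYK, lies on chromosome X. It was M in CH12 cells, in a domain of 240 kb, E in primary B cells and M in MEFs, the pattern of the autosomal gene Cr2. The Btk start lay 38.1 kb from an edge in CH12 cells, 61.9 kb in primary B cells and 662 kb in MEFs. Plcg2, the phospholipase that BTK activates, had the pattern of Blk, M in CH12 cells and E elsewhere. Its start lay 42.2 kb from an edge in CH12 cells, 178 kb in primary B cells and 77.8 kb in MEFs. Vav3, a guanine nucleotide exchange factor, ran against the rest, L in CH12 cells in a domain of 6000 kb, M in primary B cells and E in MEFs, 36.4 kb from an edge there. It was the only activating gene later in primary B cells than in MEFs.

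Among 15 inhibitory genes, 11 were E in CH12 cells, 14 in primary B cells and 11 in MEFs. These were 73.3%, 93.3% and 73.3%, beside the same 50.6%, 58.0% and 58.6% of all protein-coding starts. Fcgr2b, the inhibitory Fc receptor, and Ptpn6, the phosphatase SHP-1 that CD22 recruits, were E in all 3 maps. Siglecg, a receptor related to CD22, was E in both B cell maps and M in MEFs, and its CH12 domain of 360 kb was the shortest of the list. Pirb (Lilrb3 in the annotation) and Lair1 shared an M domain of 4420 kb in CH12 cells, the longest of the list, were E in primary B cells and M in MEFs. The CH12 and MEF maps thus held the same number of inhibitory genes in E, but with 1 earlier and 1 later in CH12 cells than in MEFs.

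Among 26 other B cell surface genes, 21 were E in CH12 cells, 26 in primary B cells and 15 in MEFs. These were 80.8%, 100.0% and 57.7%, beside 50.6%, 58.0% and 58.6% of all protein-coding starts. The MEF share was thus near that of all genes. Cd53, a tetraspanin of leukocytes, differed by 2 steps between maps, M in CH12 cells, E in primary B cells and L in MEFs, 127 kb from an edge there. Cr1l, described beside Cr2, also differed by 2 steps. Cd38 had the shortest CH12 domain of the list, 360 kb, and Tnfrsf13c, which encodes the BAFF receptor, the longest, 4780 kb. Among 14 genes of the CD40 pathway, 10 were E in CH12 cells, 14 in primary B cells and 12 in MEFs. The shares were 71.4%, 100.0% and 85.7%, beside the same shares of all protein-coding starts. Traf6, which encodes an adaptor bound by CD40, was L in CH12 cells in a domain of 1460 kb, 501 kb from an edge, and E in primary B cells and MEFs, 78.6 kb from an edge in each. Cd40lg, on chromosome X, encodes the ligand made by T cells. It was M in CH12 cells, E in primary B cells and L in MEFs. Its start lay 65.3 kb from an edge of the primary B domain, which measured 260 kb. In MEFs its L domain spanned 14120 kb, but the start lay 85.3 kb from an edge. In CH12 cells Traf5 had the shortest domain of this list, 180 kb, and Map3k14, the kinase NIK of the alternative NF-kB pathway, the longest, 4620 kb. Of the T cell counterparts, Lcp2 had the shortest CH12 domain, 380 kb, and Lat the longest, 3400 kb.

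Over these 77 pathway genes, none of them a member, 76.6% were E in CH12 cells, 97.4% in primary B cells and 66.2% in MEFs. The shares over all protein-coding starts were 50.6%, 58.0% and 58.6%, in the same order. Vav3 and Cblb, an inhibitory ubiquitin ligase that was M in all 3 maps, were the 2 genes not E in primary B cells. Relative to CH12 cells, 17 of the 77, or 22.1%, were earlier in primary B cells and none was later, beside 18.8% and 2.75% of all protein-coding starts. Relative to MEFs, 25, or 32.5%, were earlier in primary B cells and 1 was later, beside 11.8% and 13.2%. In CH12 cells relative to MEFs, 17, or 22.1%, were earlier and 8, or 10.4%, were later, beside 6.81% and 23.1%. The pathway genes thus had shares close to those of the members in each pair of maps. Some of these genes share a domain, such as Il4ra and Il21r, and are not independent of each other. Pecam1, Cd5, Pik3ap1 and Cr1l start in a member's own domain in primary B cells. The lists and the members were also chosen with earlier results of these data known. The closeness of their shares is therefore a description and not separate support.

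**Figure D4:**
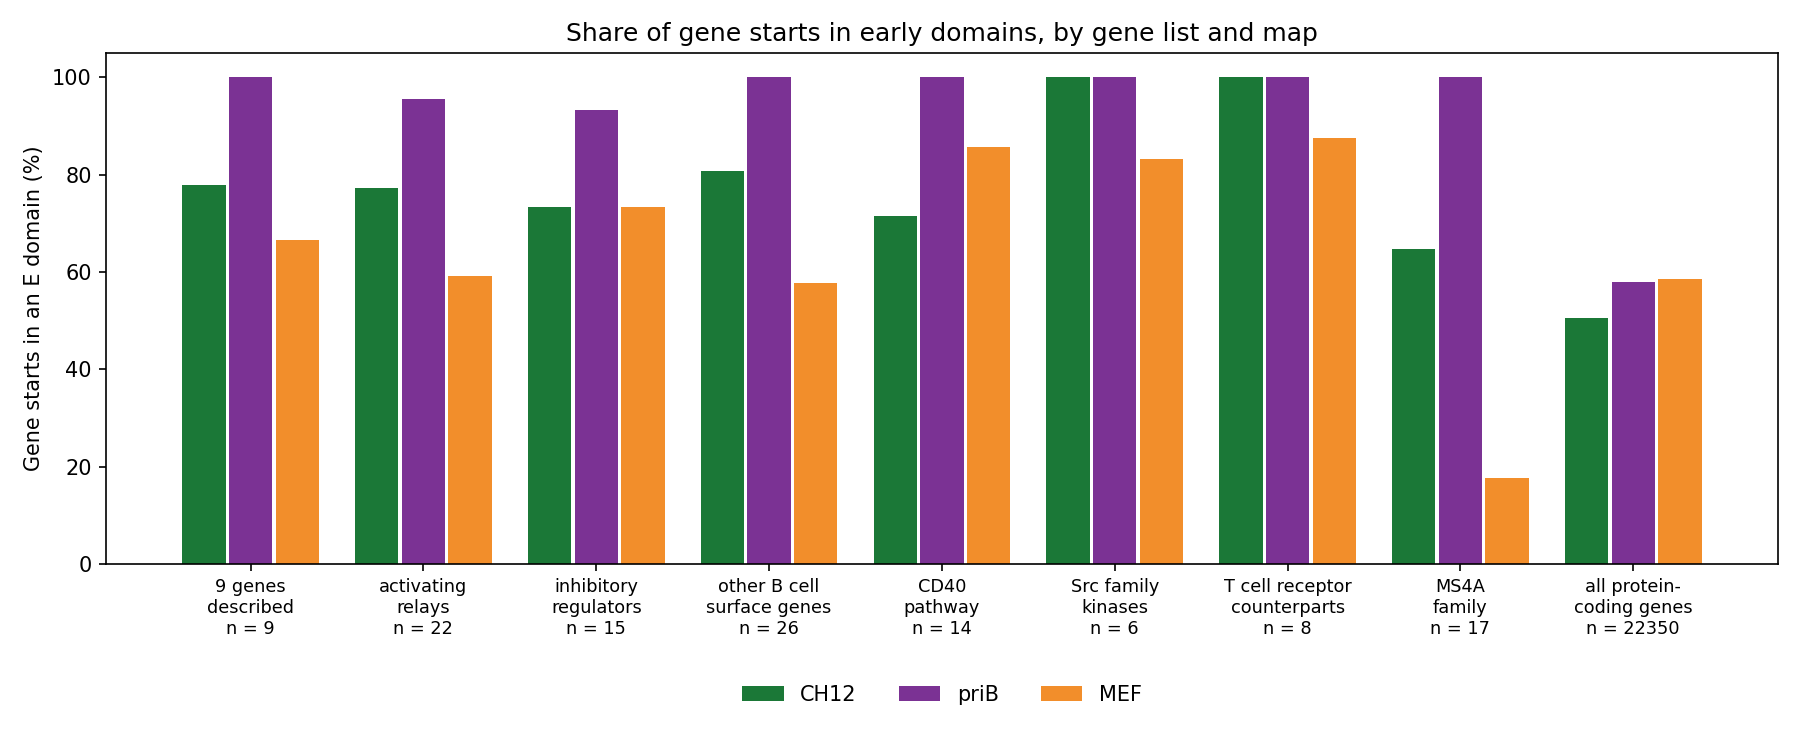
Share of gene starts in E domains (bars from 0, in percent) for the 9 genes described, 7 lists of related genes and all protein-coding genes, in the CH12 (green), primary B (purple) and MEF (orange) maps, with the number of genes under each list. The priB bars reach 93.3 to 100% in each list against 58.0% of all genes, and the MS4A family falls to 17.6% in MEF. The lists overlap and are not separate: Lyn, Fyn and Lck each stand in more than 1, and the MS4A family holds Ms4a1, which is among the 9 genes.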

How the data were processed

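Per the labels and the study's methods, the authors trimmed reads with Trim Galore 0.6.5, aligned them to mm9 with BWA 0.7.17, filtered them with SAMtools 1.9, merged replicates, took the log2 of early over late coverage in 20 kb windows with deepTools, smoothed it over 300 kb and called 3 states with a hidden Markov model. How the MEF reads were processed is not given in the sources used here. The deposited maps list domains by start, end and a state number, without RT values, so replicate spread and read depth are unknown, borders are blurred by smoothing, and the RT that separates states may differ between maps. The letters for the state numbers were set beforehand, together with the gene list, and were then checked in each map. E and L touched nowhere in any map. E was the state densest in gene starts (18.9, 8.41 and 3.76 protein-coding starts per Mb in E, M and L in CH12 cells). In the MEF map, E was state 0, M state 2 and L state 1, with 16.13, 6.48 and 3.29 starts per Mb. All 20 chromosome ends matched NCBIM37 (mm9).

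A GENCODE M1 gene had the state of the domain over its start. The members and lists were chosen with earlier results of these data known. All members are named. Pathway genes were named where L in a B cell map, where 2 steps apart between maps, or where longest or shortest in CH12 domain length, and a few for their role after their values were seen. For a reason other than their values, 3 listed genes are not reported here and were left out of the list counts. Functions were tested on simulated maps. Alternatives were gene end, midpoint and body, the most frequent state over 300 kb, short domains absorbed, starts near edges left out, M joined to E, all genes and autosomes only. Scripts ran under Python 3.11.15 with numpy 2.4.6, pandas 2.3.3 and pysam 0.24.0.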

Additional observations from a re-analysis of the deposited data

How the results depend on the processing

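The 3 states of all 9 members were the same at the gene end, at the midpoint, over most of the gene body, as the most frequent state in 300 kb, and with domains under 100 kb absorbed. With starts within 100 kb of an edge left out, Cr2 drops out of the CH12 map and the count earlier in primary B than in CH12 cells falls from 2 to 1. Over all 9 members, in E or M, the median domain length was 1880 kb in CH12, 1940 kb in primary B and 1895 kb in MEF. The median edge distance was 395 kb, 629 kb and 762 kb. With M joined to E, so that L alone makes a border, these median lengths were 4520 kb, 6520 kb and 8340 kb. The median edge distances were then 902 kb, 1919 kb and 1959 kb. At the midpoint, the median edge distance was 406 kb, 596 kb and 765 kb. Over all annotated genes the share of starts in E was 44.8% in CH12, 51.7% in primary B and 51.8% in MEF, and over autosomal protein-coding genes 51.8%, 59.2% and 61.1%. The counts of list genes in E stayed within 1.5 times in both alternatives tried. No paired analysis was possible because the replicates were merged before the domains were called. With 1 map per condition no value here has an error, and depth is unknown.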
